A study of Mus musculus with 4 samples.

Results

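The 9 genes described here, Msx1, Msx2, Pax9, Barx1, Lhx6, Lhx8, Osr2, Prrx1 and Twist1, encode transcription factors known from the odontogenic mesenchyme, the neural crest-derived connective tissue that forms the tooth together with the oral epithelium. They were picked by symbol from the 32285 genes of the count tables, and each of the 9 had UMIs (unique molecular identifiers, each standing for 1 captured RNA molecule) in all 4 libraries, so no member was lost to a filter. The libraries were single-cell RNA sequencing (scRNA-seq) of molar tooth organs of wild-type mice, labelled WTB6, which carried no engineered allele and received no treatment. Maxillary and mandibular molars were each taken at the embryonic stage E15.5 (written as E15 in some labels) and at postnatal day 1 (P1, given as P0/P1 in the protocol), with 6 tooth organs pooled in each library. There was 1 library per stage and jaw, so no difference between stages or jaws could be tested. Every such difference compares libraries, and stage, jaw, dissection and library cannot be told apart.

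Set against epithelium, 8 of the 9 members were higher in mesenchyme-like cells in every library (15.9% of all genes were), or 6 to 8 under other settings, which cost the call of Pax9 or of Pax9 and Lhx6, while Msx2 was higher in epithelium-like cells at E15.5 and close to equal in both compartments at P1 when all P1 maxillary barcodes were used. Set against other mesenchyme, 3 of the 9 (Msx1, Barx1 and Lhx6) were higher in dental mesenchyme in every library (6.47% of all genes were). Lhx6 was not counted with a minimum of 2000 UMIs per cell. Msx2 joined them when 1 mesenchyme-like cluster of 79 cells was counted as dental or left out, a cluster with 81 of the 105 Msx2 UMIs of its library's mesenchyme-like cells. Msx2 was also the member with the widest difference between stages, from 2.001 and 2.94 CPM (counts scaled to 1e+06 UMIs of a class) in mesenchyme-like cells at E15.5 (maxillary and mandibular) to 142 and 107 CPM at P1, although it was at 4.23 CPM in the P1 maxillary barcodes that the other P1 library does not share, and at 0.690 CPM at E15.5 in mandibular cells without the cluster of 79 cells. Prrx1 went the other way in both jaws, a direction that in the maxillary jaw depended on which P1 barcodes were used.

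As background, tooth formation depends on signals that pass back and forth between oral epithelium and mesenchyme. Msx1 and Msx2 are homeodomain factors that act downstream of bone morphogenetic protein signals, and Pax9 is a paired-domain factor that works with Msx1 to maintain mesenchymal Bmp4. Teeth arrest at the bud stage in mice that lack Msx1 or Pax9. Barx1, a homeodomain factor of the proximal jaw, is associated with molar rather than incisor identity, and the LIM-homeodomain factors Lhx6 and Lhx8 act in the oral side of the jaw mesenchyme and together are needed for molars. Osr2 is a zinc finger factor that limits the tooth field on the lingual side. Prrx1, a paired-related homeodomain factor, and Twist1, a basic helix-loop-helix factor, are general factors of cranial and limb mesenchyme.

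The files used the mouse build mm10, and positions are given in that build. Msx1 lies at chr5:37820485-37824583 on the minus strand, Msx2 at chr13:53466884-53473074 (minus), Pax9 at chr12:56691767-56712822 (plus), Barx1 at chr13:48662998-48666507 (plus) and Lhx6 at chr2:36081953-36105408 (minus). Lhx8 lies at chr3:154306294-154330659 (minus), Osr2 at chr15:35296098-35303305 (plus), Prrx1 at chr1:163245119-163313710 (minus) and Twist1 at chr12:33957671-33959829 (plus). Each is protein-coding, and the members share no chromosomal cluster. Pax9 overlaps Gm15524 and Slc25a21 on the opposite strand, and Prrx1 overlaps Gm20471 on the opposite strand. The count tables list these neighbours as separate genes.

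Promoter sequences were searched for the recognition letters of the families to which the members belong, TAATTA for homeodomain factors and CANNTG (the E box) for basic helix-loop-helix factors such as Twist1, on both strands. RefSeq entries (build GRCm38.p6) were matched for 8 of the 9 members, all but Osr2. Within 250 bases before a start site, TAATTA was found for Prrx1 (at 173 bases before the start) and Msx2 (187 bases before), and occurs in 4.84% of the 32851 promoters in the table. CANNTG was found for Msx1 (210 bases before), Msx2 (79), Pax9 (210) and Lhx6 (131 and 40), and occurs in 66.2% of promoters. A match is a description of letters and was not read as a binding site. The upstream stretches of Msx1 (chr5:37824586-37824835), Lhx6 (chr2:36105409-36105658) and Prrx1 (chr1:163313711-163313900) are shown as those that hold such letters outside the annotated gene. All lie on the minus strand and are written 5′ to 3′ towards the start, with capitals marking the matches.
Msx1: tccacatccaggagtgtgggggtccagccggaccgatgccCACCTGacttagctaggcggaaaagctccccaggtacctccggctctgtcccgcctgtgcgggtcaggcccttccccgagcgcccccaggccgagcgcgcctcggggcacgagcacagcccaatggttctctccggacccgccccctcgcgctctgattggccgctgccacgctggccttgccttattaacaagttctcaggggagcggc
Lhx6: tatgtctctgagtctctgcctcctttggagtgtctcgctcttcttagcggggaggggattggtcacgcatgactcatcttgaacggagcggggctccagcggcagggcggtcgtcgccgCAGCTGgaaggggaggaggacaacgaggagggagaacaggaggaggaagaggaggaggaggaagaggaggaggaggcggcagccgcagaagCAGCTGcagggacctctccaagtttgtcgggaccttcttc
Prrx1: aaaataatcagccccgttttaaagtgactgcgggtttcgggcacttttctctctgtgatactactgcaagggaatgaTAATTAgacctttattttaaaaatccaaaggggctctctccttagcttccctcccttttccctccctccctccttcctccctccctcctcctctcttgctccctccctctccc

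The E15.5 maxillary file held 10885 barcodes and 109723360 UMIs, the E15.5 mandibular 7947 barcodes and 86659227 UMIs, the P1 maxillary 18707 barcodes and 128812956 UMIs, and the P1 mandibular 19401 barcodes and 139873101 UMIs. The P1 files shared 7131 barcodes, against 28 to 70 for every other pair of libraries. None of the shared barcodes had identical counts in both files. Of them, 7093 had more UMIs in the maxillary file, with medians of 12088 and 2870 UMIs, and in their shallower mandibular copies Hand2, a factor of the mandibular arch, was at 0.698 CPM, against 5.84 CPM in the other mandibular barcodes. Shared barcodes were therefore kept in the P1 maxillary library and dropped from the P1 mandibular one. After these were dropped, 10073, 6911, 17040 and 10120 barcodes with at least 1000 UMIs were left in the order given above, and 8367, 6046, 13574 and 7498 cells after removal of cells with a high mitochondrial share and of likely doublets. Median depth of the kept cells was 9859, 11533, 3922 and 10754 UMIs.

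The P1 maxillary library has 2 unlike parts. Its 5726 kept cells with shared barcodes had a median of 12218.5 UMIs and its 7848 other cells a median of 2504.5 UMIs. Nearly all of its papilla-like cells (2255 of 2277) and odontoblast-like cells (267 of 274) were among the shared barcodes, but 42 of 2099 facial mesenchyme-like and 2 of 456 chondrocyte-like cells were. Ratios of mesenchyme-like cells that use the P1 maxillary library were therefore also computed within its shared and within its unshared barcodes, alternatives added after the data were seen. Orders of classes use all of its barcodes, with values of a part added where its first class of at least 50 cells was another.

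Cells were clustered in each library with the 9 members left out of the clustering genes, and clusters were called "X-like" from marker genes that did not include the members. Mesenchyme-like cells (collagen genes, Pdgfra, Lum, Dcn) numbered 4952, 2471, 7366 and 4033 in the order used above, and epithelium-like cells (Epcam, Cdh1, keratins) 705, 95, 1433 and 1195. Of the latter, 228, 829 and 732 were dental epithelium-like in the E15.5 maxillary, P1 maxillary and P1 mandibular libraries. Suprabasal cells numbered 410, 231 and 54 there, and 178 and 384 P1 cells were ameloblast-like. The 95 E15.5 mandibular cells were 1 cluster, led by Krt13 and Krt5, named neither dental nor suprabasal. The epithelium markers summed to 37.8, 8.42, 31.7 and 47.2 CPM in mesenchyme-like cells and to 11209, 8667, 6449 and 6916 CPM in epithelium-like cells. Clusters that met no class's naming rule stayed unnamed and made up 1.92%, 4.53%, 6.93% and 12.7% of cells. Levels of a gene (CPM) are its UMIs summed over a class and scaled to 1e+06 UMIs of that class, with exact Poisson 95% intervals. These intervals cover counting error only, since cells of 1 library are not replicates. In pooled tissue, fewer cells that express a gene and less RNA per cell cannot be told apart from a class sum.

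Msx1 in mesenchyme-like cells was at 236 CPM in the E15.5 maxillary, 85.9 CPM in the E15.5 mandibular, 192 CPM in the P1 maxillary and 129 CPM in the P1 mandibular molar, with a counting interval no wider than 3.55% either side. In epithelium-like cells it was at 8.10, 2.51, 2.99 and 4.61 CPM in the same order. The mesenchyme-like level was 29.2-fold (95% interval 23.9 to 36.01) the epithelium-like level in the E15.5 maxillary library and 28.0-fold (95% interval 22.5 to 35.2) in the P1 mandibular library. Pax9 in mesenchyme-like cells was at 167 CPM in the E15.5 maxillary, 49.7 CPM in the E15.5 mandibular, 105 CPM in the P1 maxillary and 45.9 CPM in the P1 mandibular molar. It was also present in epithelium-like cells, at 38.8, 35.6, 7.96 and 5.91 CPM. The ratio of mesenchyme to epithelium for Pax9 was 1.40-fold (95% interval 1.12 to 1.76) in the E15.5 mandibular library, the smallest among the 8, and 13.2-fold (95% interval 11.2 to 15.7) in the P1 maxillary library. Among epithelium-like cells Pax9 was higher in the suprabasal class (54.8 CPM in the E15.5 maxillary, 49.6 in the P1 maxillary and 49.0 in the P1 mandibular library) than in dental epithelium-like cells (2.21, 0.649 and 0.977 CPM). The epithelium-like class was mostly suprabasal or other epithelium at E15.5 and mostly dental epithelium-like at P1. The part of this makeup in its lower Pax9 level at P1 was not tested.

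Msx2 was the exception among the members. In mesenchyme-like cells it was at 2.001 (1.64 to 2.42) CPM in the E15.5 maxillary and 2.94 (2.40 to 3.55) CPM in the E15.5 mandibular library, against 11.03 (9.23 to 13.1) and 56.1 (47.0 to 66.4) CPM in epithelium-like cells. Its mesenchyme-like level was thus 5.51-fold (95% interval 4.24 to 7.17) and 19.1-fold (95% interval 14.7 to 24.9) below the epithelium-like level, the second value resting on 95 epithelium-like cells. At P1 both compartments were high, with 142 against 117 CPM in the maxillary and 107 against 97.8 CPM in the mandibular library. The ratio there was 1.21-fold (95% interval 1.16 to 1.28) and 1.09-fold (95% interval 1.033 to 1.15). The near-equal maxillary value came from the shared barcodes, at 169 against 126 CPM, since in the unshared ones Msx2 was at 4.23 against 27.7 CPM, 6.54-fold lower in mesenchyme-like cells, the direction seen at E15.5. With all barcodes, 1.02% of 17517 genes were like Msx2 lower in mesenchyme-like cells in both E15.5 libraries and higher in both P1 libraries. Epithelium-like cells carried 51.0% and 52.8% of all Msx2 UMIs at E15.5 and 18.3% and 21.9% at P1 (maxillary and mandibular). The stages compare unlike epithelium, since most epithelium-like cells were dental epithelium-like at P1 but not at E15.5, and the part of this makeup was not tested.

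Among the factors tied to jaw and molar position, Barx1 in mesenchyme-like cells was at 360.3 CPM in the E15.5 maxillary, 225 CPM in the E15.5 mandibular, 552 CPM in the P1 maxillary and 391 CPM in the P1 mandibular molar. Its epithelium-like level was 28.0 CPM in the E15.5 maxillary library and at or below 6.69 CPM in the other 3. Lhx6 in mesenchyme-like cells was at 45.3 CPM in the E15.5 maxillary, 10.7 CPM in the E15.5 mandibular, 34.9 CPM in the P1 maxillary and 19.3 CPM in the P1 mandibular molar. In epithelium-like cells Lhx6 did not pass 1.298 CPM, and in the E15.5 mandibular library it had 0 UMIs, which allows up to 1.26 CPM (3 counts of the class total). Lhx8, its close relative, was at 110.0 CPM in the E15.5 maxillary, 47.7 CPM in the E15.5 mandibular, 52.5 CPM in the P1 maxillary and 33.1 CPM in the P1 mandibular molar, with 2.93 CPM as its highest epithelium-like level. These 3 factors were at least 8.49-fold higher in mesenchyme-like cells in each library.

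Osr2 in mesenchyme-like cells was at 96.5 CPM in the E15.5 maxillary, 59.3 CPM in the E15.5 mandibular, 75.9 CPM in the P1 maxillary and 52.0 CPM in the P1 mandibular molar, the narrowest span across libraries of the 9 members, and its epithelium-like level reached 5.76 CPM at most. Prrx1 in mesenchyme-like cells was at 716 CPM in the E15.5 maxillary, 529 CPM in the E15.5 mandibular, 294 CPM in the P1 maxillary and 236 CPM in the P1 mandibular molar, against 13.5, 11.3, 3.39 and 2.70 CPM in epithelium-like cells. Twist1 in mesenchyme-like cells was at 295 CPM in the E15.5 maxillary, 131 CPM in the E15.5 mandibular, 140.4 CPM in the P1 maxillary and 79.2 CPM in the P1 mandibular molar, and 6.69 CPM was its highest epithelium-like level. Neither general mesenchymal factor came within 19.5-fold of its mesenchyme-like level in the epithelium-like cells of any library.

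A member was counted as higher in mesenchyme when the exact binomial 95% interval of the ratio lay above 1 in all 4 libraries. This held for 8 of the 9 members, against 15.9% of the 17517 genes with enough UMIs, and no member was higher in epithelium in all 4, as 15.4% of genes were. The median log2 ratio over the 9 members was 4.87, 4.29, 6.31 and 5.46 in the order used above, against 0.050, -0.11, 0.061 and 0.045 over all genes. With the shared or the unshared barcodes alone standing for the P1 maxillary library, the same 8 members were counted. Without a cluster of 79 cells of the E15.5 mandibular library (cluster 22) Pax9 had a log2 ratio of 0.25 (-0.06 to 0.58) there and 7 members were counted.

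**Figure D1:**
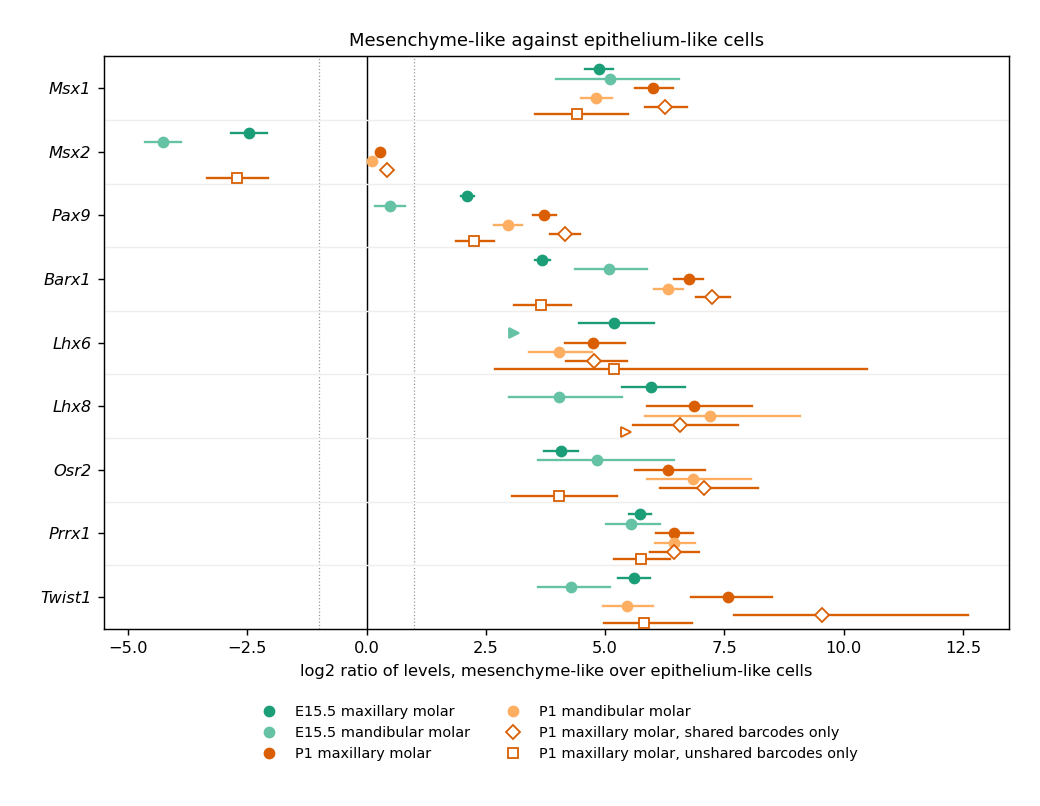
Log2 ratio of mesenchyme-like over epithelium-like levels for the 9 genes in each library, with exact binomial 95% intervals as bars, open symbols for the parts of the P1 maxillary library and triangles for lower bounds. The ratio lies above 0 for 8 genes, nearest to it for Pax9 in the E15.5 mandibular library (1.40-fold), while Msx2 lies below 0 in both E15.5 libraries and in the unshared P1 maxillary barcodes.

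Free RNA in droplets gives low levels in cells that do not express a gene. Immune-like and erythroid-like cells, which should lack these factors, had a median of 6880, 8013, 2076 and 6921 UMIs, against 10226, 13849, 6717.5 and 12150 in mesenchyme-like cells. With each cell thinned at random to 2000 UMIs, 30.9%, 13.7%, 25.7% and 18.9% of mesenchyme-like cells had an Msx1 UMI, against 1.21%, 0.175%, 0.486% and 0.511% of immune-like and erythroid-like cells. Without thinning the mesenchyme-like shares were 58.0%, 35.5%, 51.3% and 57.0%. Prrx1 had the highest background, 3.77% of immune-like and erythroid-like cells in the E15.5 maxillary library, against 69.1% of mesenchyme-like cells there. Msx2 was seen in 0.449% and 0.611% of thinned mesenchyme-like cells at E15.5 and in 14.5% and 15.52% at P1, beside background shares of 0%, 0%, 0.122% and 0.681%. Few E15.5 mesenchyme-like cells thus carried an Msx2 UMI.

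Within the mesenchyme, clusters were named papilla-like (Fgf3, Fgf10, Enpp6), odontoblast-like (Dspp, Smpd3, Phex), follicle-like (Bmp3, Slc1a3, Smoc2), connective fibroblast-like, jaw mesenchyme-like, facial mesenchyme-like, tendon-like and osteoblast-like. Clusters whose dental markers did not point to a single dental class were called mixed dental. The papilla gives rise to the odontoblasts and pulp, and the follicle to the periodontal ligament and cementum. No cluster of the E15.5 mandibular library met the papilla-like rule, and odontoblast-like clusters were found only at P1. The naming is uncertain for cluster 22 of the E15.5 mandibular library, 79 cells that were called facial mesenchyme-like, with the facial marker Alx1 among its leading genes. It shared 4 of its 10 leading genes (Plppr1, Dlx6os1, Unc5d and Dlx1as) with cluster 14, the papilla-like cluster of the E15.5 maxillary library. With cluster 24 of the P1 mandibular library, which was named facial mesenchyme-like, it shared 3 (Col8a1, Grm7 and Alx1). Results that rest on cluster 22 are given with it counted as dental or left out, alternatives added after the data were seen. The order of levels among classes of at least 50 cells is described next, as a description with no test.

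Msx1 was highest in follicle-like cells in 3 libraries, at 498 (487 to 509) CPM in the E15.5 maxillary, 459 (433 to 486) in the E15.5 mandibular and 346 (330.2 to 363) in the P1 maxillary library. In the P1 mandibular library the mixed dental cells came first at 258 (247 to 269) CPM, and follicle-like cells were at 125 CPM. Papilla-like cells were next after the follicle in the maxillary libraries, with 322 CPM in the E15.5 and 229 CPM in the P1 library. Jaw mesenchyme-like cells held 10.6 CPM in the E15.5 mandibular and 13.7 CPM in the P1 mandibular library, the lowest of the named mesenchyme-like classes there. Msx1 thus spanned a wide range within the mesenchyme, with dental classes first in each library.

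Msx2 was concentrated in few classes. At P1 it was at 217 and 167 CPM in papilla-like cells, 198 and 165 CPM in odontoblast-like cells, and 147 and 125 CPM in dental epithelium-like cells (maxillary and mandibular). The papilla-like and odontoblast-like levels had overlapping intervals in the P1 mandibular library but not in the P1 maxillary one. Ameloblast-like cells, the enamel-forming cells, held 92.1 and 60.3 CPM. Connective fibroblast-like cells held 1.50 and 2.81 CPM, no higher than 4.21 CPM, the highest value in an immune-like or erythroid-like class at P1. At E15.5 the dental epithelium-like cells of the maxillary library held 33.1 (27.1 to 40.05) CPM and its papilla-like cells 21.1 (15.9 to 27.5) CPM, which overlap. In the E15.5 mandibular library Msx2 was highest in the 79 cells of cluster 22, at 83.4 (66.3 to 104) CPM, and without them all mesenchyme-like cells of that library held 0.690 CPM on 24 UMIs in place of 2.94 CPM on 105. Whether these cells lie inside the tooth cannot be told from the class name. The unshared P1 maxillary barcodes held 22 papilla-like cells, at 201 CPM of Msx2 on 26 UMIs, and among classes with at least 50 such cells suprabasal epithelium-like cells came first, at 18.6 CPM on 11 UMIs.

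Pax9 was highest in connective fibroblast-like cells of the maxillary libraries, at 259.6 CPM in the E15.5 and 244 CPM in the P1 library, while the same class held 58.0 and 61.9 CPM in the mandibular libraries. The mandibular values came mostly from 1 cluster each, cluster 12 at E15.5 (199 of 980 cells) at 283 CPM and cluster 18 at P1 (163 of 653 cells) at 237 CPM, with 12.2 to 15.96 CPM in the other clusters of the class. In the E15.5 mandibular library cluster 22 came first, at 312 CPM, and in the unshared P1 maxillary barcodes facial mesenchyme-like cells did, at 201 CPM. Follicle-like cells were more alike between jaws, with 204 and 199.8 CPM at E15.5 (maxillary and mandibular) and then 117 and 148 CPM in the P1 libraries. Papilla-like cells held 217 CPM in the E15.5 maxillary, 73.1 CPM in the P1 maxillary and 59.5 CPM in the P1 mandibular library. Odontoblast-like cells held 7.08 and 6.73 CPM, so Pax9 was low in the class where Msx1 and Msx2 were high.

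Barx1 was highest in papilla-like cells wherever that class was found, at 983 (945 to 1022) CPM in the E15.5 maxillary, 684 (675 to 693) in the P1 maxillary and 603 (591 to 615) in the P1 mandibular library. The mixed dental cells of the P1 maxillary library held 682 CPM, which does not differ from its papilla-like level beyond counting error, and in the unshared barcodes of that library tendon-like cells came first at 342 CPM. Odontoblast-like cells held 553 and 459 CPM. Barx1 was also found in classes other than dental mesenchyme, with 172, 176, 242 and 124 CPM in pericyte-like cells and 181 and 202 CPM in the chondrocyte-like cells of the E15.5 mandibular and P1 maxillary libraries.

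Lhx6 was highest in papilla-like cells of the E15.5 maxillary library, at 200.2 (183 to 218) CPM, and was at 28.1 and 17.9 CPM in papilla-like cells at P1. Follicle-like cells held 70.2, 69.6, 68.0 and 115 CPM, the first in order in both mandibular libraries. In the P1 maxillary library the mixed dental cells came first at 113 CPM, nearly all of them with shared barcodes, and in the unshared barcodes follicle-like cells did at 64.1 CPM. Lhx6 was also present in endothelium-like cells, at 20.6, 24.2, 19.2 and 41.7 CPM, where none of the other 8 members passed 13.0 CPM. Its level in immune-like cells was at most 1.84 CPM in any library. Lhx8 was at 156 CPM in the papilla-like, 145 CPM in the connective fibroblast-like and 135 CPM in the follicle-like cells of the E15.5 maxillary library, neighbours whose intervals overlap. At P1 connective fibroblast-like cells came first, at 135 and 56.5 CPM (in the unshared maxillary barcodes follicle-like cells did, at 112 CPM), and papilla-like cells held 33.5 and 35.9 CPM. In the P1 mandibular library the connective fibroblast-like, follicle-like (51.5 CPM) and tendon-like (51.5 CPM) levels had overlapping intervals.

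Osr2 had no single leading class. Its highest level was 126 CPM in connective fibroblast-like cells of the E15.5 maxillary, 154 CPM in cluster 22 of the E15.5 mandibular, and 95.6 and 98.5 CPM in follicle-like cells of the P1 maxillary and mandibular libraries. In 3 of the 4 libraries the interval of the first class overlapped that of the second, the P1 mandibular library being the exception. Odontoblast-like cells held 4.25 and 5.16 CPM, against 81.2 and 57.8 CPM in papilla-like cells of the same libraries.

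Prrx1 and Twist1 were highest outside the dental classes in the maxillary libraries, in facial mesenchyme-like cells. Prrx1 was at 1061 CPM there in the E15.5 and 1001 CPM in the P1 library, and Twist1 at 447 and 445 CPM. Nearly all facial mesenchyme-like cells of the P1 maxillary library had unshared barcodes, and in its shared barcodes, among classes with at least 50 cells, Prrx1 was highest in pericyte-like cells at 636 CPM and Twist1 in follicle-like cells at 337 CPM. In the mandibular libraries follicle-like cells came first for Twist1, at 326 and 166 CPM, and for Prrx1 in the E15.5 library, at 816 CPM. In the P1 mandibular library 69 pericyte-like cells came first for Prrx1, at 637 (572 to 708) CPM. That interval overlaps the one of connective fibroblast-like cells, at 599 (581 to 617) CPM. Among mesenchyme-like classes at P1, odontoblast-like cells had the lowest Prrx1, at 31.7 and 33.2 CPM. Twist1 there was at 48.2 and 36.5 CPM, also the lowest in the maxillary library, while jaw mesenchyme-like cells held 35.5 CPM in the mandibular one. Prrx1 was present beyond the mesenchyme-like cells, with 578, 683, 636 and 637 CPM in pericyte-like cells. Twist1 in the same pericyte-like cells was at 155, 104, 143 and 111 CPM.

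**Figure D2:**
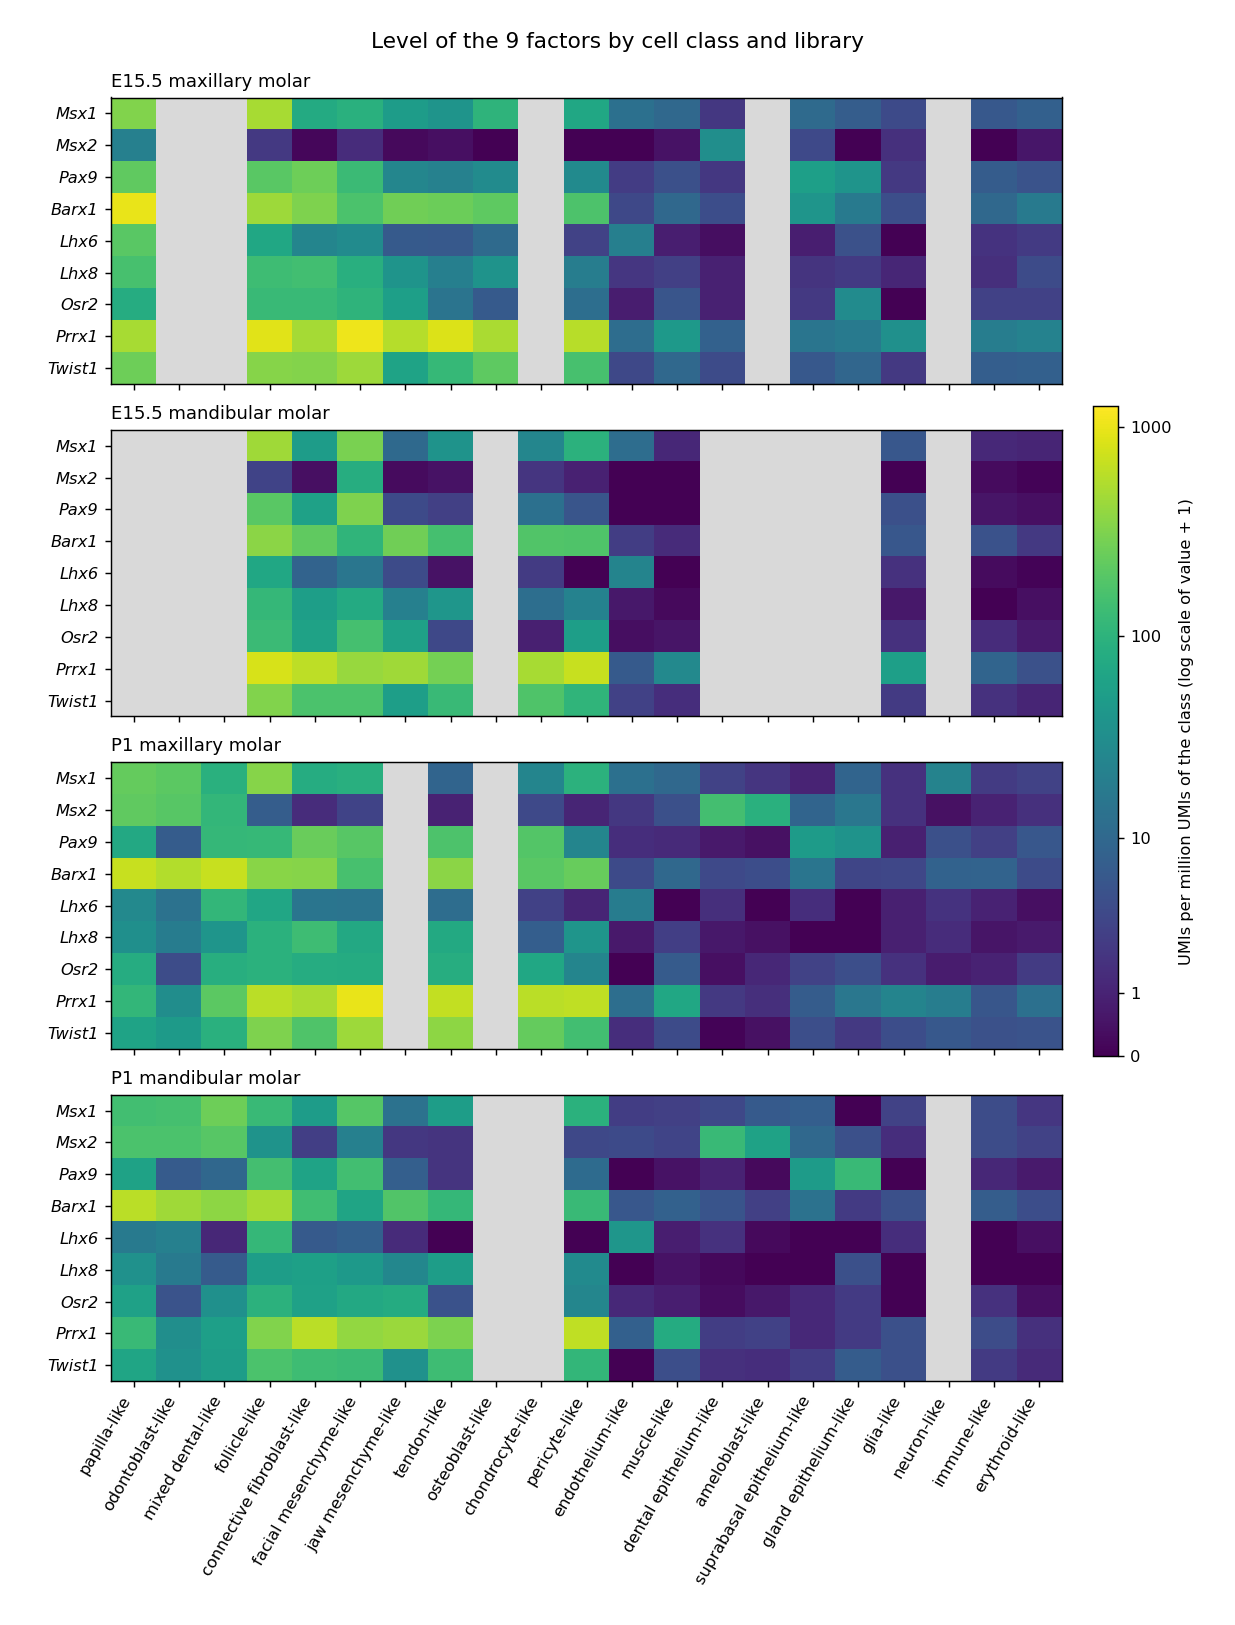
Levels in CPM (colour, log scale) of the 9 genes in each named class of at least 50 cells, by library, with grey where a class was not found or smaller. Msx2 stands out in papilla-like, odontoblast-like, mixed dental and dental epithelium-like or ameloblast-like cells, and in the facial mesenchyme-like class of the E15.5 mandibular library, which is the 79 cells of cluster 22. Prrx1 is high in most mesenchyme-like classes and in pericyte-like cells, but low in odontoblast-like cells (31.7 and 33.2 CPM at P1).

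Dental mesenchyme (papilla-like, odontoblast-like, follicle-like and mixed dental cells) was then set against all other mesenchyme-like cells of the same library. It held 1733 of 4952, 226 of 2471, 4035 of 7366 and 2432 of 4033 mesenchyme-like cells. At E15.5 most of it was follicle-like (1479 of 1733 and 226 of 226 cells), and at P1 papilla-like cells were its largest class (2277 of 4035 and 1108 of 2432). In the P1 maxillary library cluster 10 (476 follicle-like cells) was counted as dental. Cluster 9 of the E15.5 maxillary library (339 cells, Msx1 at 407 and Barx1 at 378 CPM) was counted as other mesenchyme. These clusters shared 4 of 10 leading genes (Mmp13, Pdzrn4, Ibsp and Runx2), and the part of this division was not tested. The summed level of the follicle markers was not higher in dental than in other mesenchyme in 3 of the 4 libraries (940.0 against 1127 CPM in the E15.5 maxillary, 915 against 1404 in the P1 maxillary and 933 against 2120.0 in the P1 mandibular), with Igfbp5 as the most abundant gene of the list, and its part in the follicle-like class was not tested.

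Msx1, Barx1 and Lhx6 were higher in dental mesenchyme in all 4 libraries. Msx1 was at 474, 459, 223 and 169 CPM in dental and 106, 57.3, 80.2 and 46.4 CPM in other mesenchyme, ratios of 4.49, 8.02, 2.78 and 3.65. Barx1 was at 518, 361, 633 and 511 CPM against 274, 215, 256 and 147 CPM. Its ratio was smaller, from 1.68-fold (95% interval 1.56 to 1.80) in the E15.5 mandibular to 3.48-fold (95% interval 3.34 to 3.63) in the P1 mandibular library. Lhx6 was at 87.6, 69.6, 40.5 and 27.0 CPM against 22.1, 6.14, 14.8 and 3.71 CPM. Its P1 mandibular ratio was 7.29-fold (95% interval 5.66 to 9.54), but with a minimum of 2000 UMIs per cell the log2 ratio was -0.092 in place of 2.87. Cells were clustered and named anew under that minimum. It was met by 2422 of the 2432 dental cells and 4014 of the 4033 mesenchyme-like cells there. The part of the new naming in this change was not tested. In all, 3 of the 9 members were higher in dental mesenchyme in all 4 libraries, against 6.47% of 16918 genes, and none was lower in all 4, against 5.46%. With the shared barcodes alone in the P1 maxillary library, the dental over other ratio was 2.35-fold for Msx1, 1.67-fold for Barx1 and 2.25-fold for Lhx6, and with the unshared ones 4.996-fold, 1.65-fold and 4.54-fold. The median log2 ratio over all genes was 0.13 in the E15.5 mandibular and 0.15 in the P1 mandibular library, so every ratio there is read relative to that shift.

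Msx2 was higher in dental mesenchyme in 3 libraries. It was at 4.80 against 0.459 CPM in the E15.5 maxillary, 181 against 2.25 CPM in the P1 maxillary and 157 against 3.65 CPM in the P1 mandibular library. In the E15.5 mandibular library the log2 ratio was 0.11 (-1.14 to 1.14), an interval that includes 0, with cluster 22 counted as other mesenchyme. It was 5.67 (4.90 to 6.54) with cluster 22 counted as dental and 2.66 (1.23 to 3.97), on 8 and 16 UMIs, with it left out, so in both cases Msx2 was the fourth member higher in dental mesenchyme in all 4 libraries. Pax9 was 1.42-fold, 5.23-fold and 1.304-fold higher in dental mesenchyme in the E15.5 maxillary, E15.5 mandibular and P1 mandibular libraries, but 2.89-fold lower in the P1 maxillary one (1.31-fold lower in its unshared barcodes).

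Lhx8, Osr2, Prrx1 and Twist1 were higher in dental mesenchyme in both E15.5 libraries and lower in both P1 libraries, with intervals clear of equality in all 4, as 2.45% of 16918 genes were. Prrx1 was at 852 and 816 CPM in dental and 641 and 507 CPM in other mesenchyme at E15.5 (maxillary and mandibular), and at 167 and 117 against 754 and 478 CPM at P1. The P1 difference was 4.52-fold (95% interval 4.39 to 4.66) in the maxillary and 4.07-fold (95% interval 3.92 to 4.22) in the mandibular library. Twist1 was 3.51-fold and 1.39-fold lower in dental mesenchyme at P1, Lhx8 2.59-fold and 1.57-fold lower, and Osr2 1.10-fold and 1.23-fold lower. The makeup of dental mesenchyme moved with stage as given above, and its part in these differences was not tested. With the shared barcodes alone in the P1 maxillary library, the log2 ratio of dental over other mesenchyme was -1.91 for Prrx1, -1.11 for Twist1, -1.97 for Lhx8 and -0.21 for Osr2, against -2.18, -1.81, -1.37 and -0.13 with all of its barcodes. With the unshared barcodes alone it was -0.33 for Prrx1, -0.62 for Twist1, 0.46 for Lhx8 and 0.13 (-0.11 to 0.38) for Osr2, so the direction turned for Lhx8 and was not clear of counting error for Osr2.

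**Figure D3:**
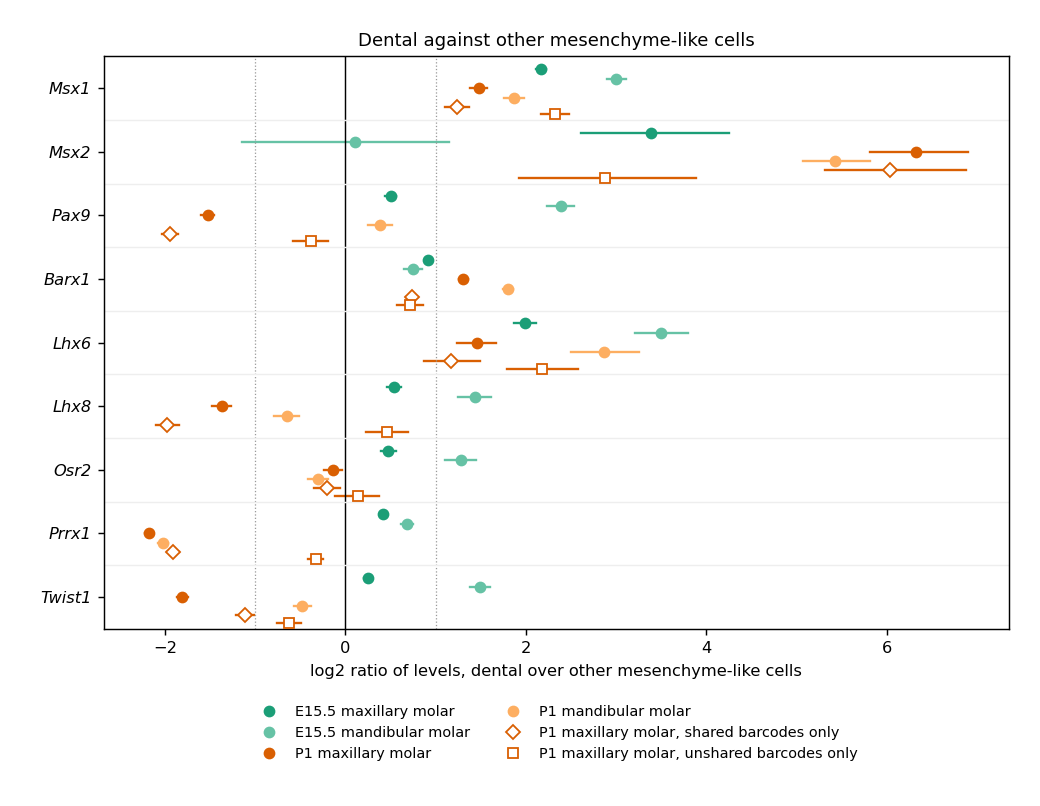
Log2 ratio of dental over other mesenchyme-like cells for the 9 genes in each library, with exact binomial 95% intervals as bars. Msx1, Barx1 and Lhx6 lie above 0 in all 4 libraries, while Lhx8, Osr2, Prrx1 and Twist1 lie above 0 in both E15.5 libraries and below 0 in both P1 libraries. Open symbols are the shared and the unshared barcodes of the P1 maxillary library, where Lhx8 and Osr2 lie above 0 in the unshared ones.

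Between stages, Msx2 was the member that differed most. Its level in mesenchyme-like cells was 71.0-fold (95% interval 58.7 to 86.7) higher at P1 than at E15.5 in the maxillary libraries and 36.3-fold (30.0 to 44.5) higher in the mandibular libraries. In the unshared P1 maxillary barcodes it was 2.11-fold (1.45 to 3.04) higher, at 4.23 CPM on 43 UMIs. It was 10.3-fold (7.89 to 13.7) higher within papilla-like cells of the maxillary libraries, from 21.1 to 217 CPM. Dental epithelium-like cells of the maxillary molar showed the same direction, from 33.1 to 147 CPM. Connective fibroblast-like cells stayed at or below 2.81 CPM at both stages and in both jaws, near the immune-like and erythroid-like levels.

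Prrx1 was 2.43-fold (95% interval 2.39 to 2.48) lower at P1 in maxillary and 2.24-fold (95% interval 2.19 to 2.29) lower in mandibular mesenchyme-like cells. Twist1 was 2.10-fold and 1.65-fold lower, and Lhx8 2.09-fold and 1.44-fold lower. Barx1 went slightly the other way, 1.53-fold and 1.74-fold higher at P1, but in the unshared P1 maxillary barcodes it was 1.87-fold lower. Msx1 and Lhx6 differed in direction between the jaws, with log2 ratios of P1 over E15.5 of -0.30 and -0.38 in the maxillary and 0.59 and 0.86 in the mandibular libraries. This held for all mesenchyme-like cells together, since within dental mesenchyme both genes were lower at P1 in both jaws, Msx1 by 2.13-fold and 2.71-fold and Lhx6 by 2.16-fold and 2.58-fold (maxillary and mandibular). Pax9 was at -0.66 and -0.11, and Osr2 at -0.35 and -0.19.

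A difference of over 2-fold in the same direction in both jaws was seen for Msx2, higher at P1, as for 7.75% of 19764 genes, and for Prrx1, lower at P1, as for 3.34%. With 1 member in each direction of 9, the count itself is near the share over all genes. Within dental mesenchyme more members passed 2-fold. In the maxillary libraries 6 of 9 (Msx1, Pax9, Lhx6, Lhx8, Prrx1 and Twist1) were lower at P1, against 11.7% of genes, and in the mandibular libraries 7 of 9 (the same 6 and Osr2), against 17.0%, while Msx2 was higher in both, against 12.4% and 11.0%. With the unshared P1 maxillary barcodes alone no member was over 2-fold lower in dental mesenchyme, and the maxillary log2 ratios other than that of Msx2 lay between -0.88 (Barx1) and -0.26 (Prrx1). Dental mesenchyme was mostly follicle-like at E15.5 and mostly of other dental classes at P1, and the part of this makeup was not tested. The Prrx1 value rests on which P1 maxillary barcodes are used. Prrx1 was at 182 CPM in the mesenchyme-like cells with shared barcodes and 859 CPM in those without, and Twist1 at 93.1 and 380.2 CPM. With the shared barcodes alone the maxillary log2 ratio of P1 over E15.5 was -1.97 for Prrx1, -1.66 for Twist1 and 6.40 for Msx2. With the unshared barcodes alone it was 0.26 for Prrx1 and 0.37 for Twist1, so their direction turned, and 1.08 for Msx2, which kept its direction. The mandibular ratio of Prrx1, which does not use these barcodes, was -1.16 (-1.20 to -1.13) on the log2 scale.

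Within papilla-like cells, found at both stages only in the maxillary libraries, 5 members were over 2-fold lower at P1, against 13.0% of genes, and Msx2 was higher, against 10.3%. Lhx6 differed most of the 5, 7.12-fold (95% interval 6.37 to 7.94) lower at P1, from 200.2 to 28.1 CPM. Lhx8 was 4.65-fold, Prrx1 4.33-fold, Twist1 4.10-fold and Pax9 2.97-fold lower. Osr2 did not differ beyond counting error, with a log2 ratio of -0.01 (-0.21 to 0.20). Msx1 and Barx1 were 1.40-fold and 1.44-fold lower, under the 2-fold mark. The E15.5 papilla-like class had 254 cells, and nearly all P1 maxillary papilla-like cells were in the deeper, shared part of that library. The papilla-like cells of the stages lie in unlike clusters, since none of the 4 papilla-like clusters of the P1 maxillary library shared a leading gene with the E15.5 one, whereas its mixed dental cluster shared Gabrg3 and Tac1. That mixed dental cluster held 113 CPM of Lhx6, and an unnamed cluster of the same library held 461 CPM.

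Follicle-like cells of the maxillary libraries showed smaller stage differences. Prrx1 was at 907 and 606 CPM, Twist1 at 340.3 and 318 CPM, and Lhx6 at 70.2 and 68.0 CPM at E15.5 and P1. No member was over 2-fold lower there, as 6.70% of genes were, and Msx2 was higher, at 2.29 and 7.29 CPM, as 6.38% were. All of its 37 UMIs at P1 came from shared barcodes, and in these Pax9 was 2.04-fold lower. The maxillary follicle-like clusters were in part unlike between stages. P1 cluster 8 (527 of 1003 cells) shared 4 of 10 leading genes with the E15.5 follicle-like cluster 0. P1 cluster 10 (the other 476 cells) shared 4 (Mmp13, Pdzrn4, Ibsp and Runx2) with E15.5 cluster 9, which was counted as other mesenchyme. In mandibular follicle-like cells Msx1, Lhx8 and Prrx1 were over 2-fold lower at P1 (8.44% of genes) and Msx2 higher (13.0% of genes). These are unlike clusters too, as cluster 7, with 348 of the 444 P1 cells, shared 1 of 10 leading genes (Cntn6) with the E15.5 follicle-like cluster. Msx1 there was at 459 CPM at E15.5, against 125 CPM at P1, while the mixed dental cells of the P1 mandibular library, a separate class, held 258 CPM.

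**Figure D4:**
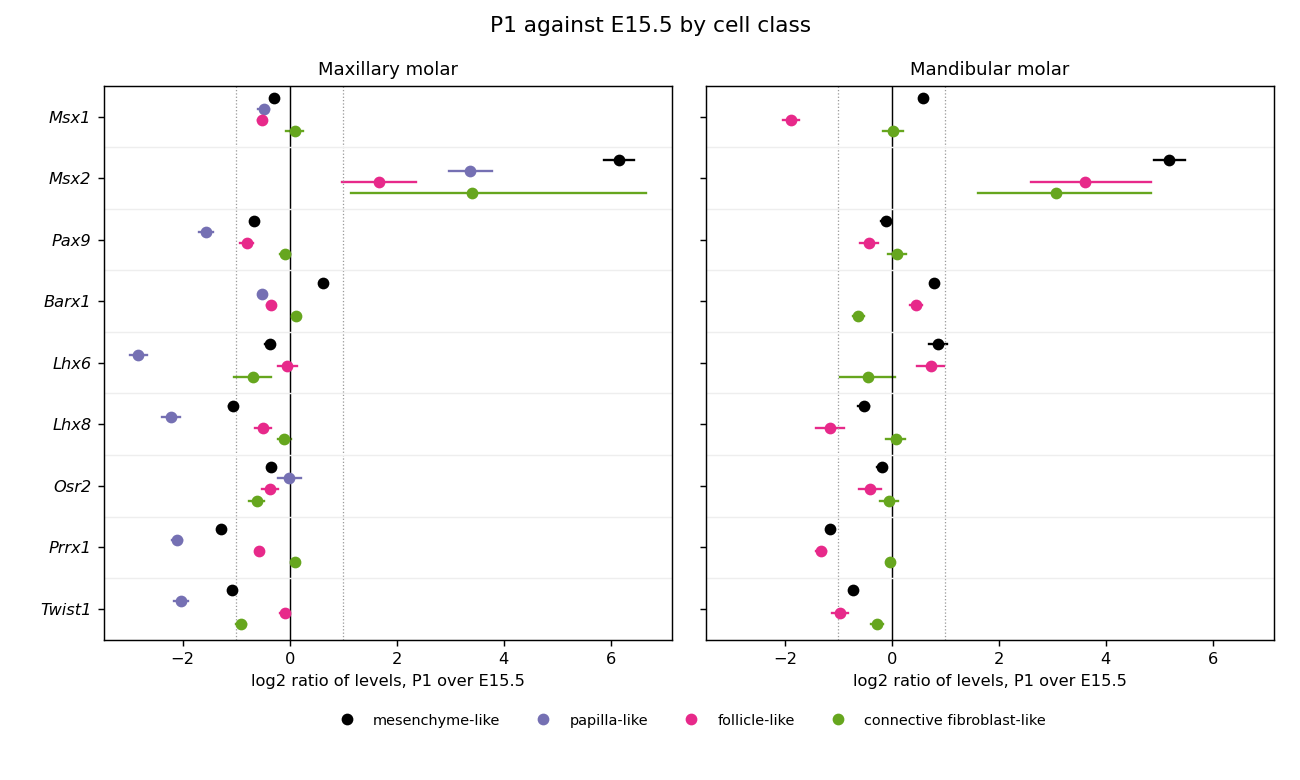
Log2 ratio of P1 over E15.5 for the 9 genes in mesenchyme-like cells and in narrower classes, by jaw, with exact binomial 95% intervals as bars. In mesenchyme-like cells Msx2 is far above 0 in both jaws, Prrx1 is below -1 in both, and the other genes lie nearer to 0, while in maxillary papilla-like cells Lhx6 (-2.83) and Lhx8 (-2.22) lie further below 0 than Prrx1.

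Between jaws at E15.5, every member but Msx2 was higher in maxillary than in mandibular mesenchyme-like cells. Lhx6 differed most, 4.25-fold (95% interval 3.82 to 4.75), followed by Pax9 at 3.36-fold, Msx1 at 2.75-fold, Lhx8 at 2.30-fold and Twist1 at 2.26-fold. These 5 members passed 2-fold, as did 7.73% of 19788 genes, and no member passed 2-fold in the other direction, as 5.02% did. Osr2, Barx1 and Prrx1 were 1.63-fold, 1.60-fold and 1.35-fold higher in the maxillary library. Msx2 was 1.47-fold lower there, on 108 and 105 UMIs, but 2.90-fold higher with cluster 22 of the mandibular library left out.

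The jaw difference at E15.5 was much smaller within 1 class. In follicle-like cells, which had 1479 maxillary and 226 mandibular cells, no member passed 2-fold in either direction (5.95% and 4.41% of genes did). Lhx6 was at 70.2 and 69.6 CPM there, with a log2 ratio of 0.01 (-0.22 to 0.25), and Pax9 at 204 and 199.8 CPM, with 0.03 (-0.10 to 0.17). Follicle-like cells made up 29.9% of maxillary but 9.15% of mandibular mesenchyme-like cells at E15.5. In connective fibroblast-like cells, by contrast, Pax9 was 4.48-fold (95% interval 4.16 to 4.83), Lhx6 2.80-fold, Lhx8 2.70-fold, Osr2 2.10-fold and Twist1 2.03-fold higher in the maxillary library (5 of the 8 members with enough UMIs, against 5.51% of genes, with 7.69% in the other direction). These class values cover unlike clusters. Mandibular cluster 12, the one with most of the Pax9 there (283 CPM), shared 5 of 10 leading genes with maxillary cluster 4, which held 387 CPM, and Lhx8 was at 158 and 231 CPM and Twist1 at 319 and 480 CPM in these clusters. The part of these class shares in the jaw difference of all mesenchyme-like cells was not tested.

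At P1 all 9 members were higher in maxillary mesenchyme-like cells, by less than at E15.5 for each of the 8 other than Msx2, which had been lower there at E15.5. Pax9 was 2.29-fold (95% interval 2.19 to 2.41) higher and was the single member past 2-fold, as 4.19% of 20717 genes were in this direction and 5.87% in the other. The other 8 ranged from 1.25-fold for Prrx1 to 1.80-fold for Lhx6. With the shared barcodes alone in the maxillary library, Pax9 stayed at 2.03-fold and Prrx1 turned to 1.29-fold lower. With shared barcodes kept in both P1 libraries no member passed 2-fold. With the unshared maxillary barcodes alone Pax9, Lhx8, Prrx1 and Twist1 were over 2-fold higher, while Msx2 was 25.2-fold and Barx1 2.03-fold lower in the maxillary library. Within papilla-like cells at P1 no member passed 2-fold (4.35% and 4.60% of genes did), with Msx1 at 229 and 144 CPM and Lhx8 at 33.5 and 35.9 CPM. The papilla-like clusters were in part unlike. Maxillary clusters 21 and 3 shared 6 and 3 of 10 leading genes with papilla-like mandibular clusters. Cluster 21 also shared 5 (Hist1h1b, Birc5, Depdc1a, Cenpf and Pimreg) with connective fibroblast-like cluster 17 of the E15.5 mandibular library. Maxillary cluster 4 (690 of 2277 cells) shared 1 (Grik1) with a papilla-like mandibular cluster. Maxillary cluster 7 (599 of 2277 cells) shared 4 with mandibular cluster 1, named mixed dental, where Msx1 was at 258 CPM. In follicle-like cells at P1 Msx1 was 2.77-fold (95% interval 2.52 to 3.05) higher in the maxillary library (7.13% of genes passed 2-fold in this direction), at 346 and 125 CPM, and Msx2 5.25-fold (95% interval 3.66 to 7.71) lower (9.78%), at 7.29 and 38.3 CPM on 37 and 171 UMIs. The follicle-like class lay in part in unlike clusters in the 2 P1 libraries. Mandibular cluster 7 (348 of 444 cells) shared 4 of 10 leading genes (Pappa, Cntn6, Gldn and Gabrg3) with maxillary mixed dental cluster 9. It shared none with the maxillary follicle-like clusters. In mandibular cluster 7 and maxillary cluster 9, Msx1 was at 109 and 91.5 CPM and Msx2 at 46.0 and 110.5 CPM. Msx1 was thus lower and Msx2 higher in the maxillary cluster, the reverse of the class directions. Mandibular cluster 25 (79 of 444 cells) shared 3 (Ibsp, Bmp3 and Igfbp5) with maxillary follicle-like cluster 10. Msx1 was at 234 and 297 CPM and Msx2 at 7.08 and 12.52 CPM in these clusters. The part of this cluster makeup in the class differences was not tested. In connective fibroblast-like cells Pax9, Barx1, Lhx6 and Lhx8 were over 2-fold higher in the maxillary library. Of all genes 6.22% were, and 7.07% in the other direction. Pax9 differed by 3.93-fold, although mandibular cluster 18 of this class, at 237 CPM, was near the 244 CPM of the maxillary class.

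The jaw labels were checked with genes known to mark each arch. Hand2, a mandibular factor, was at 1.50 CPM in maxillary and 22.3 CPM in mandibular mesenchyme-like cells at E15.5, and at 0.0487 and 7.60 CPM at P1. Pitx1, also mandibular, was at 63.2 and 96.4 CPM, then 8.97 and 27.4 CPM, and Pou3f3, a maxillary factor, at 42.7 and 22.4 CPM, then 23.7 and 8.74 CPM. All 3 followed the labels at both stages, with intervals that do not overlap. At P1 the Hand2 values are no independent check, since the level of Hand2 in the shared barcodes was among the reasons for keeping them in the maxillary library. Dlx6, again mandibular, was at 14.0 and 20.4 CPM, then 17.7 and 21.8 CPM, while Dlx5 was at 30.2 and 31.7 CPM at E15.5 and higher in maxillary cells at P1, at 145 and 119 CPM.

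**Figure D5:**
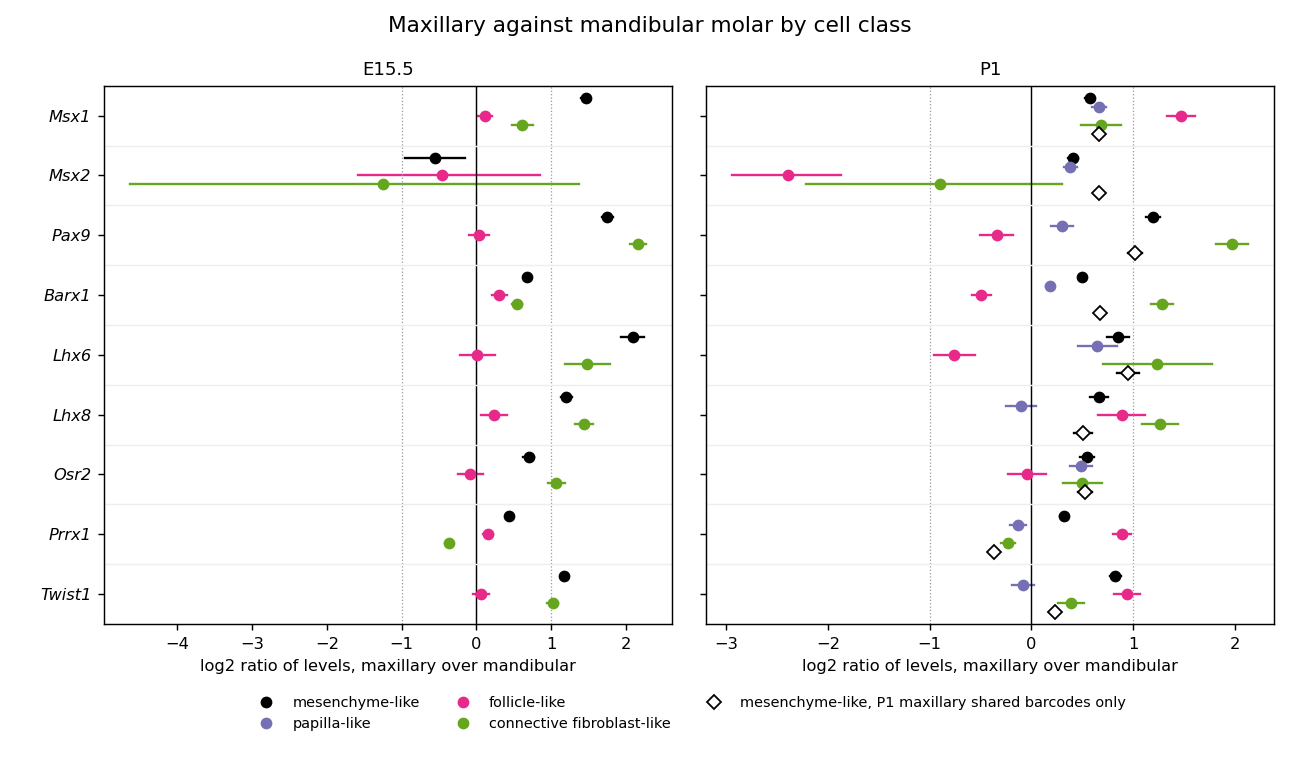
Log2 ratio of maxillary over mandibular for the 9 genes at both stages, in mesenchyme-like cells and in narrower classes, with exact binomial 95% intervals as bars. The ratios of mesenchyme-like cells at E15.5 lie above 0 for all genes but Msx2, and those of follicle-like cells lie near 0 at E15.5, while at P1 follicle-like cells lie above 1 for Msx1 and below -1 for Msx2.

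Single cells carried several members at once. After thinning to 2000 UMIs, a mesenchyme-like cell had UMIs of 2.53 ± 1.42 of the 9 members (mean ± SD over cells) in the E15.5 maxillary, 1.61 ± 1.19 in the E15.5 mandibular, 2.21 ± 1.21 in the P1 maxillary (2.19 in its shared and 2.24 in its unshared barcodes) and 1.57 ± 1.08 in the P1 mandibular library. Immune-like and erythroid-like cells had 0.0959, 0.0175, 0.068 and 0.0324, and epithelium-like cells 0.196, 0.163, 0.242 and 0.19. Follicle-like cells were at 3.26, 3.17, 2.60 and 2.21, and papilla-like cells at 3.24 in the E15.5 maxillary, 2.15 in the P1 maxillary and 1.82 in the P1 mandibular library. Odontoblast-like cells were lower, at 1.58 and 1.37. The most members seen in 1 thinned mesenchyme-like cell was 8, 7, 7 and 6.

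Co-detection was compared with the product of the single shares in the same thinned mesenchyme-like cells. Of the 36 pairs of members, 30 were seen together more often than that product in the E15.5 maxillary, 34 in the E15.5 mandibular, 24 in the P1 maxillary and 24 in the P1 mandibular library, and 19 were above it in all 4. Within the shared and within the unshared P1 maxillary barcodes 22 and 26 pairs were. The pair seen together least often, relative to the product, was Msx2 with Twist1 in 3 libraries (0.702, 0.612 and 0.39 times the product in the E15.5 maxillary, E15.5 mandibular and P1 maxillary library) and Msx2 with Prrx1 in the P1 mandibular library (0.413 times). At E15.5 these Msx2 ratios rest on 6 and 2 cells with both genes. Msx1 and Msx2 were seen together 1.92, 3.91, 1.41 and 1.59 times as often as the product, on 13, 8, 347 and 187 cells. Such ratios also reflect the mixture of classes in a library. Within dental mesenchyme alone, 26, 26, 25 and 21 pairs were seen together more often than the product in the same order of libraries, and 14 in all 4, with median ratios of 1.032, 1.033, 1.09 and 1.037. There the lowest pair was Msx2 with Twist1 in the maxillary libraries (0.291 and 0.593 times), Msx2 with Osr2 in the E15.5 mandibular one, where no cell had both and the product gave 0.451 cells, and Msx1 with Lhx6 in the P1 mandibular one (0.591 times).

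Over the 117 clusters of at least 50 cells, levels of the members were compared as log2(CPM + 1). The clusters share libraries, so the correlations are a description. The closest pairs were Lhx8 with Twist1 (Pearson r = 0.94) and Prrx1 with Twist1 (r = 0.92). Msx2 stood apart, with r from -0.14 to 0.28 with the other 8 members and 0.27 with Msx1, its close relative. Among 8330 genes, those nearest to Msx2 were Dlx3 (r = 0.93), Dlx4os and Dlx4. The genes nearest to Msx1 were Mab21l2 (r = 0.87), Lhx8 and Barx1, and those nearest to Barx1 were Mab21l2 (r = 0.90), Lhx8 and Lum. Osr2 was nearest to Lhx8 (r = 0.88), Twist2 and Twist1, Prrx1 to Twist1, Col6a1 and Col6a2, Lhx8 to Twist1, Mab21l2 and Nfatc4, and Twist1 to Lhx8, Prrx1 and Nfatc4. Lhx6 had the loosest neighbours, Chst2 (r = 0.78), Tmem132c and Tmem132cos. For Pax9 the nearest gene was Slc25a21 (r = 0.86), which overlaps it on the opposite strand, followed by Rspo1 and Osr2.

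A list of 42 other genes of the odontogenic mesenchyme (signals, and homeobox, forkhead, T-box and other factors) was described by the same rules. Of the 40 with enough UMIs, 21 were higher in mesenchyme than in epithelium in all 4 libraries while Pitx1, Tfap2a, Meis1, Meis2 and Isl1 were among those higher in epithelium. Fgf10, a mesenchymal growth factor, was at 59.99, 47.3, 73.1 and 66.9 CPM in mesenchyme-like cells, and Bmp4 at 59.4, 37.2, 71.1 and 69.0 CPM. Between stages, genes over 2-fold higher at P1 in both jaws, like Msx2, included Fgf3, Dlx2, Dlx3 and Dlx5, and those lower, like Prrx1, included Inhba, Pitx1, Six2, Eya1, Tfap2b, Shox2, Tbx18 and Hand2. Dlx3, the gene nearest to Msx2, was at 3.78 and 3.35 CPM at the earlier stage and 97.3 and 75.4 CPM at the later one (maxillary and mandibular). Dental mesenchyme was higher in 11 of 39 in all 4 libraries, among them Bmp4, Runx2 and Lef1, and lower in 7, among them Pitx1, Alx4 and Meis2. Lef1, a mediator of Wnt signals, was at 139, 117, 66.6 and 74.6 CPM in dental and 50.2, 14.2, 17.8 and 18.6 CPM in other mesenchyme. At E15.5, 13 of 40 were over 2-fold higher in maxillary mesenchyme-like cells, and at P1 8 were, while Hand2 was over 2-fold higher in mandibular cells at both stages.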

How the data were processed

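The authors deposited gene by barcode count matrices, whole-number UMI counts that were not normalized, made by droplet scRNA-seq (10x 3′ chemistry) with Cell Ranger 7.0.1 on the mouse build mm10. Each of the 4 libraries is 1 sample of 6 pooled tooth organs. The 9 members and the gene lists were chosen with earlier results of these data known.

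From the counts, barcodes with at least 1000 UMIs were kept, and barcodes found in both P1 libraries were dropped from the P1 mandibular one. Cells whose mitochondrial share lay more than 3 median absolute deviations over the median of their library were removed (above 5.63%, 7.03%, 6.39% and 6.53% in the E15.5 maxillary, E15.5 mandibular, P1 maxillary and P1 mandibular library). Doublets were marked by scanpy's scrublet at 0.8% per 1000 barcodes (948, 505, 2800 and 3011 barcodes). Each library was clustered by Leiden at resolution 1 on 2000 variable genes, without the 9 members, into 32, 27, 37 and 34 clusters. A cluster was named where its markers lay highest in position between the 10 and 90 percentiles of all clusters (at least 0.4, with 3 or more markers detected in 5% of its cells), and its leading genes did not go against the name. These limits were chosen with the clusters in view, and the names may differ from those of the study. No per-cell class annotation was used.

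Levels are summed UMIs of a class scaled to 1e+06 UMIs of the class (CPM), with exact Poisson 95% intervals. Ratios have exact binomial 95% intervals, and shares of cells are from cells thinned at random to 2000 UMIs. With 1 library per stage and jaw no test was made and no p-value is given. Genes with at least 10 UMIs in a comparison were counted. The named genes are the 9 members, the 3 genes with the highest correlation with each, a list of 42 odontogenic genes, 5 jaw genes and class markers. Some genes of the odontogenic list are not reported here by name. Ratios and thinning were tested on simulated data. Alternatives changed the cell filter, the UMI minimum, the shared barcodes, the level, the depth, the naming, the clustering and the free RNA correction, and others, on the P1 maxillary barcodes and on cluster 22 of the E15.5 mandibular library, were chosen after seeing the data. The software was Python 3.11.15, numpy 2.4.6, pandas 2.3.3, scipy 1.17.1, scanpy 1.11.5, leidenalg 0.10.2 and matplotlib 3.10.9.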

Additional observations from a re-analysis of the deposited data

Results flagged for a closer look

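The ratio of mesenchyme-like over epithelium-like cells had opposite signs at the 2 stages for Msx2 in both jaws, as it did in the same direction for 1.02% of 17517 genes. On the log2 scale it was -2.46 in the E15.5 maxillary and -4.26 in the E15.5 mandibular library, and 0.28 in the P1 maxillary and 0.12 in the P1 mandibular library. In the P1 maxillary barcodes not shared with the other P1 library it was -2.71, the sign seen at E15.5. Dental epithelium-like cells were 228 of the 705 epithelium-like cells in the E15.5 maxillary library and none of the 95 in the E15.5 mandibular one. They were 829 of 1433 and 732 of 1195 at P1 (maxillary and mandibular), and the part of this makeup was not tested. The difference between stages was not tested, since there is 1 library per stage and jaw.

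For 4 members the ratio had opposite signs at the 2 stages in dental over other mesenchyme, above 0 at E15.5 and below 0 at P1 in both jaws, as it did for 2.45% of 16918 genes. In the order E15.5 maxillary, E15.5 mandibular, P1 maxillary and P1 mandibular, the log2 ratio of Prrx1 was 0.41, 0.69, -2.18 and -2.02. Twist1 was at 0.25, 1.49, -1.81 and -0.48, and Lhx8 at 0.54, 1.43, -1.37 and -0.65. Osr2 was at 0.48, 1.28, -0.13 and -0.30. In the unshared P1 maxillary barcodes Prrx1 and Twist1 kept their sign (-0.33 and -0.62), while Lhx8 was at 0.46 and Osr2 at 0.13, with an interval that includes 0. Dental mesenchyme was mostly follicle-like at E15.5 and mostly papilla-like and odontoblast-like or mixed at P1. In the maxillary libraries E15.5 cluster 9 was counted as other mesenchyme and P1 cluster 10, with 4 shared leading genes, as dental. The part of these shifts was not tested, nor were the differences between stages.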

How the results depend on the processing

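No paired analysis was possible because there is 1 library per stage and jaw. The 8 members higher in mesenchyme became 6 with thinned cells and 7 with cells named one by one or without cluster 22 of the E15.5 mandibular library, and were 8 under the other settings, and the 3 higher in dental mesenchyme ranged from 2 to 4. The 5 members over 2-fold between jaws at E15.5 became 6 (with Msx2 added) without removal of cells and without cluster 22. The 2 members over 2-fold between stages (Msx2 and Prrx1) became 1 (Msx2) with shared barcodes removed from both P1 libraries, with the unshared P1 maxillary barcodes alone, with the mean over cells of each cell's CPM, with cells thinned to 2000 UMIs and with each cell named by its own markers. The 1 member over 2-fold between jaws at P1 (Pax9) became 5 with shared barcodes removed from both P1 libraries (Msx2 lower, 4 members higher in maxillary cells), 6 with the unshared P1 maxillary barcodes alone, 0 with them kept in both, and 2 (Pax9 and Twist1) with the mean over cells, with thinned cells and with each cell named by its own markers.

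Of the log2 ratios of single members, Lhx6 in dental over other mesenchyme of the P1 mandibular library turned from 2.87 to -0.092 with a minimum of 2000 UMIs. Cells were clustered and named anew under that setting. With shared barcodes removed from both P1 libraries, Lhx8 in dental over other mesenchyme of the P1 maxillary library turned from -1.37 to 0.57, and Prrx1 and Twist1 in P1 over E15.5 of the maxillary libraries turned from -1.28 to 0.24 and from -1.07 to 0.35. With the unshared P1 maxillary barcodes alone, an alternative chosen after seeing the data, these 3 were 0.46, 0.26 and 0.37. The cause of these changes was not tested. Members detected per mesenchyme-like cell depended on depth, as thinning to 1000 UMIs gave 1.56, 0.939, 1.35 and 0.897 and no thinning gave 4.99, 3.84, 4.09 and 4.22 (E15.5 maxillary, E15.5 mandibular, P1 maxillary and P1 mandibular), against 2.53, 1.61, 2.21 and 1.57 at 2000 UMIs. Levels of mesenchyme-like cells of the E15.5 mandibular library rest on the fewest UMIs among mesenchyme-like sums.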

Other observations

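Cluster 26 of the P1 maxillary library, 196 cells of which 190 had shared barcodes, was nearest to the mesenchyme markers but was led by genes of other classes, among them Fst, and stayed unnamed. Its first leading genes were Dab1, Tnr and Tfap2b. It held 461 CPM of Lhx6, 1022 CPM of Barx1, 435 CPM of Msx1, 184 CPM of Lhx8 and 132 CPM of Osr2, each above the level of that member in every named class of at least 50 cells of that library. As these cells were in no class, they are not part of the levels of mesenchyme-like cells.

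Cluster 22 of the E15.5 mandibular library, 79 cells named facial mesenchyme-like, held 83.4 CPM of Msx2, 312 CPM of Pax9, 299.7 CPM of Msx1 and 154 CPM of Osr2. It shared the leading genes Plppr1, Dlx6os1, Unc5d and Dlx1as, 4 of 10, with cluster 14 of the E15.5 maxillary library, which was named papilla-like and held 21.1 CPM of Msx2. Another 3 (Col8a1, Grm7 and Alx1) were shared with the facial mesenchyme-like cluster 24 of the P1 mandibular library, which held 21.3 CPM of Msx2. Barx1 and Lhx6 were at 106 and 15.4 CPM in cluster 22, against 983 and 200.2 CPM in cluster 14. Lhx8, Prrx1 and Twist1 were at 78.3, 416 and 166 CPM in cluster 22, against 156, 490 and 256 CPM in cluster 14.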
